A study of Mus musculus with 10 samples.

Results

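The Sox family encodes transcription factors that bind DNA through a high mobility group (HMG) box, and 10 of its genes (Sox2, Sox4, Sox5, Sox6, Sox9, Sox11, Sox12, Sox13, Sox17 and Sox18) were followed here among the 31053 genes of the count matrices. They were chosen by name, with earlier results of these data known, and their transcripts were counted in every library and cell class of the series, in organoids and in colonic crypts.

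Transcripts of single mouse intestinal cells were sequenced in 10 libraries, 8 from organoids and 2 from colonic crypts. Organoids are epithelial structures grown in a gel from crypts of the proximal small intestine of mice aged 6 to 12 weeks. The 3 ENR-organoid libraries were grown with EGF (50 ng/mL), Noggin (100 ng/mL) and R-Spondin 1 (500 ng/mL), and were at passage 2, 7 and 3. The 3 Hyper-organoid libraries, at passage 1, 6 and 3, were grown in a medium of 8 components. These were EGF (50 ng/mL), FGF2 (20 ng/mL), 10% R-Spondin 1 conditioned medium, the BMP receptor inhibitor LDN193189 (0.2 μM), GSK-3 Inhibitor XV (0.1 μM), the kinase inhibitor Pexmetinib (1 μM), valproic acid (VPA, a histone deacetylase inhibitor, 500 μM) and EPZ6438 (2 μM), which blocks EZH2, the enzyme that methylates histone H3. The 2 libraries of -VE-organoids, at passage 1 and 6, lacked VPA and EPZ6438 and kept the other components. In replicates 1 and 2 the Hyper- and -VE-organoids were derived from ENR-organoids, and replicate 3 of ENR and Hyper came from primary crypts. Each replicate number is read here as 1 culture series, from the library names. The sources used here do not say whether replicates 1 and 2 are separate cultures or passages of the same culture. The mouse line behind each organoid library was not given in the sources used here. Of the colonic libraries, 1 holds crypts of normal mice and 1 holds crypts of 8-week-old mice given 2.5% dextran sulfate sodium (DSS), which injures the colonic epithelium, for 5 days.

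Sox proteins are grouped by sequence, and the groups have different roles in development. The SoxC genes Sox4, Sox11 and Sox12 act in progenitors, Sox11 mainly in the embryo and in young neurons. The SoxD genes Sox5, Sox6 and Sox13 lack an activation domain of their own and, in cartilage, Sox5 and Sox6 work beside the SoxE gene Sox9. In the intestine Sox9 is a Wnt target of the crypt base that Paneth cells need, and Sox4 acts in the precursors of endocrine and tuft cells. The SoxF genes Sox17 and Sox18 serve the endothelium, Sox17 the definitive endoderm as well, and the SoxB gene Sox2 serves pluripotent cells and the foregut.

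The stretches upstream of 4 transcript starts are given because these genes span the range of behaviour described below. Sox11 and Sox12 were called in every cell class tested, with limits. In goblet cells Sox11 passed the filter on low counts only through the Hyper libraries, so it had to differ there. In enteroendocrine cells both Sox12 calls, and the Sox11 call against -VE, were lost under some alternatives. The Sox12 call against -VE in stem cells was also lost under some. Sox5 was called at a low level, and Sox4 is the most abundant of the 10 and changed by less than 2-fold. Each stretch is the 250 bases before a RefSeq transcript start (GRCm38.p6), all on the minus strand. The stretches are read 5′ to 3′, with CG dinucleotides in capitals. They lie at chr12:27342719-27342968 (Sox11), chr2:152398047-152398296 (Sox12), chr13:28953700-28953949 (Sox4) and chr6:143947107-143947356 (Sox5).
Sox11: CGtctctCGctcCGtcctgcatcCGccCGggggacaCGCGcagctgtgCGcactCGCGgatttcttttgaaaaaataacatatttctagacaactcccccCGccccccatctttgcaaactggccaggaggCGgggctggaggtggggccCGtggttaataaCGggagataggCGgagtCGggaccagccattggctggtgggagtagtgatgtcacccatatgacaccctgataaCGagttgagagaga
Sox12: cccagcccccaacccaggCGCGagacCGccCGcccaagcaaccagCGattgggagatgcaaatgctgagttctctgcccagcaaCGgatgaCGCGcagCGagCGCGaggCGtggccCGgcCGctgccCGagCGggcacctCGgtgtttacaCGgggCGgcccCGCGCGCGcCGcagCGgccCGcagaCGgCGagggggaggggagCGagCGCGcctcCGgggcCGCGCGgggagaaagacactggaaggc
Sox4: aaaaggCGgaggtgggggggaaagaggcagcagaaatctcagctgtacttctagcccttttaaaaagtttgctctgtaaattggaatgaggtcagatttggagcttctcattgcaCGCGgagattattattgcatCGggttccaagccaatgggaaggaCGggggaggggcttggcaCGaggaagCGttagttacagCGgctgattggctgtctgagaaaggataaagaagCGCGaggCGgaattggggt
Sox5: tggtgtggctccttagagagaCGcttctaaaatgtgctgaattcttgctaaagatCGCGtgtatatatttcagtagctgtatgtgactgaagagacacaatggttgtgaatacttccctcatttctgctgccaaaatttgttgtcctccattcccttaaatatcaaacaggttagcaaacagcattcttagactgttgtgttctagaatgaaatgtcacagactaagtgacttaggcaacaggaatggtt

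The Sox12 stretch held 35 CG dinucleotides, a number reached by 2.97% of the 32851 RefSeq promoters of this length. The Sox11 stretch held 17 (reached by 23.5%), Sox4 held 11 (35.6%) and Sox5 held 3 (71.0%). The Sox5 stretch lies inside the annotated gene, before an internal transcript start, so it is not the promoter at the gene's 5′ end. The Sox11, Sox12 and Sox4 stretches lie at the 5′ end of their genes. The matching stretches of Sox13 and Sox2 held 31 and 27, so the count did not separate the called from the other genes. The letters ACAAT, a core of Sox recognition sites, were searched on both strands. They stood in the Sox5 stretch and not in those of Sox11, Sox12 or Sox4, against 27.7% of all promoters. The genes differ widely in structure. By the GENCODE M21 annotation of GRCm38, Sox4 (chr13:28948919-28953713) and Sox11 (chr12:27334264-27342574) consist of 1 exon each, while Sox5 (chr6:143828425-144781977) and Sox6 (chr7:115470872-116038796) have transcripts of up to 15 and 17 exons. Sox2 lies inside Sox2ot on the same strand. Sox4 overlaps Gm26735 on the opposite strand.

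The kept cells numbered 22139 in the organoid libraries and 3065 in the colonic ones, with 89124015 to 170019527 UMIs (unique molecular identifiers, 1 per captured transcript) per organoid library and a median of 38174 to 50652 UMIs per cell. Any 2 libraries shared at most 5 barcodes of kept cells. The cell classes are those of the deposited annotation. In ENR-organoids 3 of 4 stem cell markers were highest in the stem cell class, but in Hyper-organoids only Ascl2 was, with Lgr5, Olfm4 and Cd44 highest in the transit amplifying class. All 4 markers led their own class for enterocytes, enteroendocrine cells and Paneth cells in each organoid group. The goblet class was led by all 4 of its markers in ENR- but by 2 of 4 in -VE- and Hyper-organoids, where Tff3 and Muc2 were highest in Paneth cells. For enterocyte progenitors it was 2 of 4, and 3 of 4 in Hyper. The transit amplifying class was led by 3 of its 4 markers in each organoid group, with Ube3c highest in enteroendocrine cells. Hyper replicates 1 to 3 held only 10, 2 and 2 Paneth cells and 3, 3 and 2 enterocyte progenitors, so the marker results for these classes there rest on few cells. In the study both stem and transit amplifying cells of Hyper-organoids fell in other clusters than those of ENR-organoids, so changes within these classes also compare different clusters. Enterocytes and their progenitors made up 32.0% to 46.9% of the ENR cells, 9.97% and 10.6% of the -VE cells and 0.356% to 1.73% of the Hyper cells. In sums over all cells a change in class shares and a change within cells cannot be told apart, so the classes are also compared one by one.

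Levels are given in CPM, the UMIs of a gene scaled to the UMI total of the library or class. The protocol captures the 3′ end, 1 molecule per transcript, so levels of different genes were compared without a correction for length. Whether all genes are captured equally well was not tested. Sox4 and Sox9 dominated the family in every organoid library. Sox4 supplied 72.8% to 75.6% of the summed level of the 10 genes in ENR-organoids and 63.3% to 66.6% in Hyper-organoids, and Sox9 supplied 20.8% to 22.8% and 23.2% to 24.6%. Sox11 accounted for 0.0570% to 0.117% of the sum in ENR- and 3.89% to 6.22% in Hyper-organoids. The summed level was 405 to 414 CPM in ENR-, 423 and 436 in -VE- and 627 to 703 in Hyper-organoids.

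**Figure D1:**
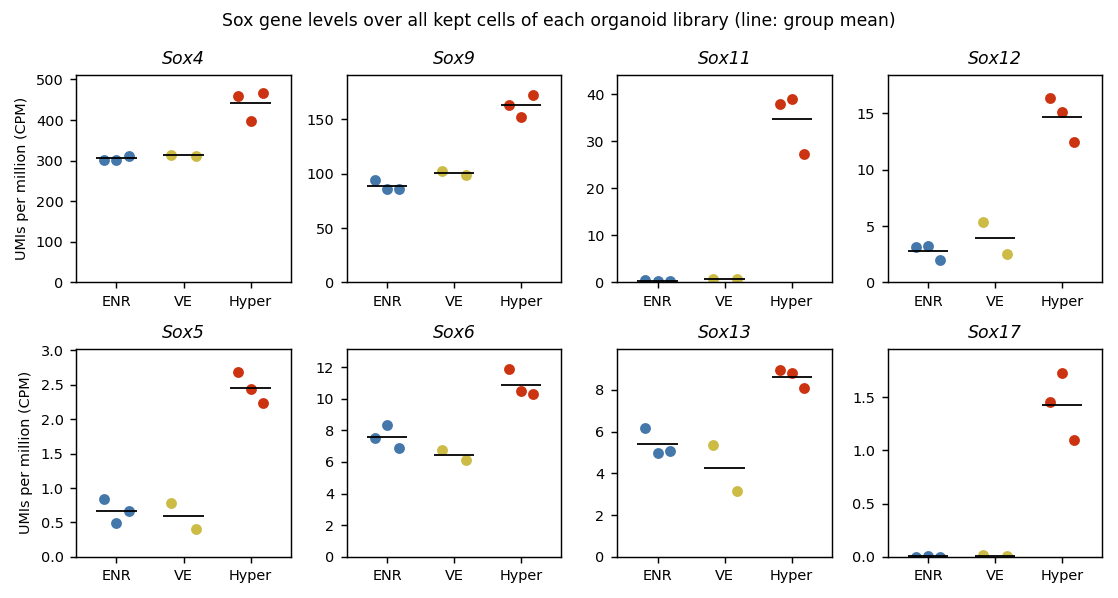
Level of 8 Sox genes, in CPM on linear axes that start at 0, over all kept cells of each organoid library, with 1 point per library and a line at the group mean. All 3 Hyper points lie above the ENR and -VE points for each gene, and for Sox11 and Sox17 the ENR and -VE points lie near 0.

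Of the 10 genes, 8 passed the filter on low counts, and all 8 were higher in Hyper- than in ENR-organoids and -VE-organoids. Sox5, Sox11, Sox12 and Sox17 were called higher in both comparisons, meaning an adjusted p under 0.05 and at least a 2-fold difference. Among the 16037 genes tested, 18.2% were called higher against ENR and 16.1% against -VE. Sox4, Sox6, Sox9 and Sox13 passed the adjusted p in both comparisons but differed by less than 2-fold. Sox13 missed the adjusted p under some alternatives, with an edgeR adjusted p of up to 0.201 against ENR (without ENR replicate 2 or 3 or Hyper replicate 1 or 2, and thinned) and of 0.0735 against -VE (thinned). For all 8 genes the Hyper libraries did not overlap the others, which was also so for 61% of all genes against ENR and 64.5% against -VE. The median log2 fold change of the 8 was 1.26 against ENR and 1.33 against -VE, beside -0.01 and 0.01 over all genes tested. Sox17 could be tested only because of its level in the Hyper libraries, so these counts and medians are a description. Both comparisons use the same 3 Hyper libraries.

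Within the SoxC group, Sox11 went from near absence to a clear level. It stood at 0.483, 0.277 and 0.236 CPM in ENR replicates 1 to 3, at 0.829 and 0.647 CPM in the -VE libraries, and at 37.9, 39.0 and 27.3 CPM in Hyper replicates 1 to 3. These are 102 UMIs in all ENR libraries, 211 in -VE and 13258 in Hyper. The groups were far apart. Against ENR the log2 difference was 6.59 ± 0.26 (SE, edgeR adjusted p = 1.29e-06), and against -VE it was 5.43 ± 0.28 (adjusted p = 1.05e-05). Sox12 stood at 3.18, 3.21 and 2.02 CPM in ENR, 5.33 and 2.56 in -VE and 16.4, 15.1 and 12.5 in Hyper. Its edgeR log2 fold changes were 2.26 ± 0.28 (SE, adjusted p = 0.000258) and 1.76 ± 0.32 (adjusted p = 0.00278). The second was 2.39 without -VE replicate 1 and 1.33 without -VE replicate 2, and stayed called. Sox4, the most abundant member, stood at 301, 303 and 313 CPM in ENR, 315 and 311 in -VE and 460, 397 and 466 in Hyper. The Hyper libraries were all above the rest, but the log2 fold changes were only 0.40 ± 0.07 (SE, edgeR adjusted p = 0.00176) and 0.36 ± 0.08 (adjusted p = 0.00776). Over all genes tested, plain CPM moved the median log2 difference by 0.12 against ENR and 0.15 against -VE, and edgeR's scaling removes this shift, which is why its fold changes are smaller than ratios of CPM.

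Sox9, the single SoxE gene followed, stood at 94.3, 85.6 and 86.1 CPM in ENR, 102 and 99.0 in -VE and 163, 152 and 172 in Hyper. The log2 fold change was 0.75 ± 0.06 (SE, edgeR adjusted p = 2.92e-05) against ENR and 0.56 ± 0.07 (adjusted p = 0.000482) against -VE. The 3 Hyper libraries lay above all others.

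Of the SoxD genes only Sox5 was called. It stood at 0.843, 0.488 and 0.662 CPM in ENR, 0.780 and 0.400 in -VE and 2.69, 2.43 and 2.24 in Hyper, which gave log2 fold changes of 1.76 ± 0.29 (SE, edgeR adjusted p = 0.00112) and 1.93 ± 0.33 (adjusted p = 0.00232). Sox6 was at 6.89 to 8.33 CPM in ENR, 6.14 and 6.75 in -VE and 10.3 to 11.9 in Hyper. Its log2 fold changes of 0.40 (adjusted p = 0.00734) and 0.62 (edgeR adjusted p = 0.00229) stayed under 2-fold. Sox13 was at 4.96 to 6.15 CPM in ENR, 3.13 and 5.34 in -VE and 8.08 to 8.94 in Hyper, with log2 fold changes of 0.55 (adjusted p = 0.0321) and 0.89 (edgeR adjusted p = 0.00944). When 1 library was left out the Sox13 value against -VE ran from 0.56 to 1.34. The highest, without -VE replicate 1, was past the 2-fold threshold.

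Among the SoxF genes, Sox17 was all but restricted to Hyper-organoids, at a low level. Its UMIs numbered 0, 1 and 0 in the ENR libraries, 2 and 1 in the -VE libraries and 201, 245 and 99 in the Hyper libraries. The Hyper levels were 1.45, 1.72 and 1.10 CPM. The ratio of pooled levels was 454 against ENR (exact 95% interval 81.2 to 17979) and 143 against -VE (48.6 to 695), where the intervals cover counting error only. Both differences were called (edgeR adjusted p = 1.18e-05 and 8.09e-05), though Sox17 passed the filter on low counts only through the Hyper libraries and so had to differ. Sox18 had 1 UMI in 1 Hyper and 1 -VE library and 0 in all the others, and no test was possible. The SoxB gene Sox2 had 1 to 4 UMIs in every organoid library, 5 in all of ENR and 6 in all of Hyper, and also failed the filter. Of 8 endothelial marker genes 3 could be tested, and 2 of them, Egfl7 and Plvap, were called higher in both comparisons. Plvap had 52 to 129 UMIs in the Hyper libraries and at most 6 in any other organoid library. Like Sox17, it passed the filter only through the Hyper libraries and had to differ. The summed level of the 8 endothelial markers was 25.8 to 28.8 CPM in Hyper-, 9.25 to 9.63 in ENR- and 10.7 and 12.01 in -VE-organoids. Egfl7 made up 24.2 to 27.5 CPM of it in Hyper- and 8.78 to 9.27 CPM in ENR-organoids. Emcn was at 0 in all 3 Hyper libraries, Cdh5 and Kdr were at 0 in 2 of the 3, and Cldn5 and Tie1 had 1 to 4 UMIs in each. Their part in the Sox17 result was not tested.

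The media without VPA and EPZ6438, those of -VE- and ENR-organoids, were compared as well. Against ENR-organoids, 0 of the 8 tested genes were called in -VE-organoids by edgeR, beside 2.55% of all genes called in either direction. At an unadjusted p under 0.05 there were 2 of the 8 (Sox9 and Sox11), beside 3847 of all 16037 genes. The nearest was Sox11, whose log2 difference was 1.16 ± 0.29 (SE) with an edgeR adjusted p of 0.0505. The -VE libraries lay above all ENR libraries for it, as groups did not overlap for 44% of all genes. Sox11 was called under 10 of 18 alternatives, so the count of 0 depends on the processing. Among these were DESeq2 (1.17, adjusted p = 0.000377) and edgeR with the culture series as a block (1.03, adjusted p = 0.0281). Sox4 had 0.04 ± 0.08 and overlapping groups, Sox9 had 0.19 ± 0.07 (SE, edgeR adjusted p = 0.132).

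The share of cells with at least 1 UMI was compared after each cell had been thinned to 10000 UMIs, which left out 1028 shallower organoid cells (4.64%). For Sox11 the share was 0.250%, 0.319% and 0.181% in ENR, 0.913% and 0.399% in -VE and 25.1%, 25.4% and 18.3% in Hyper. Without thinning the Hyper libraries showed 33.7% to 55.9% and the ENR libraries 0.639% to 1.23%. Enterocytes give a comparison. In Hyper-organoids 0 of 82 thinned enterocytes had a Sox11 UMI, which allows a share of up to 3.66% when 3 counts are taken as the floor (exact 95% limit 4.40%). Of transit amplifying cells thinned to the same 10000 UMIs, 26.8% had a Sox11 UMI. Before thinning the median depths were 46863 and 51686 UMIs. Sox12 was seen in 1.67% to 3.67% of ENR cells and 11.4% to 14.1% of Hyper cells (6.77% to 12.6% and 39.1% to 50.3% unthinned). Sox9 was seen in 49.1% to 50.9% and 66.5% to 71.9% (76.8% to 80.4% and 90.0% to 93.2% unthinned), and Sox4 in 79.7% to 81.6% and 88.6% to 92.0% (88.8% to 91.8% and 96.2% to 98.5% unthinned). Thinned enterocytes had Sox12 in 0.384%, Sox9 in 21.99% and Sox4 in 47.4% of cells in ENR-, and in 2.44%, 26.8% and 47.6% in Hyper-organoids. Pooled stem cells had Sox12 in 6.40% of ENR and 13.1% of Hyper cells, Sox9 in 62.2% and 71.6%, and Sox4 in 90.8% and 92.3%. Pooled transit amplifying cells had Sox12 in 2.62% and 13.2%, Sox9 in 57.1% and 70.6%, and Sox4 in 89.2% and 90.1%. Shares over all cells thus also depend on the class shares, and that part was not tested. Sox17 was seen in 0.909% to 1.46% of Hyper cells and in 0 of the thinned ENR and -VE cells. Its share in Hyper enterocytes was 1 of 82 cells (1.22%, exact 95% interval 0.0309 to 6.61), so no share above the enterocyte level was detectable. Cells with both Sox4 and Sox9 made up 41.8% to 44.2% of ENR, 49.7% and 50.4% of -VE and 59.3% to 66.4% of Hyper cells, and cells with all 3 SoxC genes 0% of ENR and 2.57% to 4.08% of Hyper cells.

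**Figure D2:**
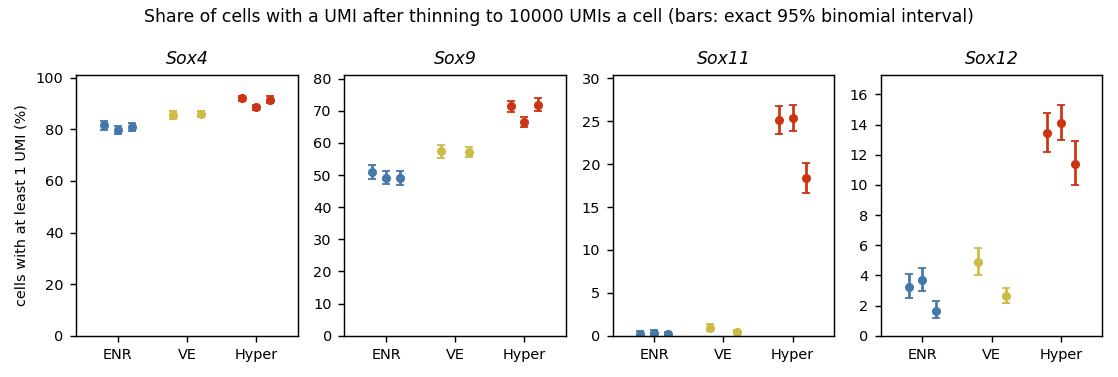
Percent of kept cells with at least 1 UMI of 4 Sox genes after thinning to 10000 UMIs a cell, with 1 point per library and exact 95% binomial intervals that cover counting error only. Sox11 rises from 0.319% or less in ENR libraries to 18.3% or more in Hyper libraries, whereas Sox4 is found in at least 79.7% of the cells of each organoid library.

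The members differed in which cells held them. The classes are stem cells (SC), transit amplifying cells (TA), goblet cells (GC), enteroendocrine cells (EE), Paneth cells (PC), enterocytes (EC), their progenitors (EP) and revival stem cells (RSC). Ranges are over libraries with at least 20 cells of the class, and class levels are a description with no test. Sox4 was highest in enteroendocrine cells in all 3 groups. In ENR-organoids it ran from 1487 to 2291 CPM there, 473 to 737 in goblet cells, 340 to 361 in stem cells and 308 to 347 in transit amplifying cells, followed by 218 to 239 in enterocyte progenitors, 122 to 158 in enterocytes and 66.1 to 101 in Paneth cells. Among neighbours in this order only the stem and transit amplifying ranges overlapped in this order. In Hyper-organoids the order was the same for enteroendocrine (1706 to 2224 CPM), goblet (554 to 762) and stem cells (396 to 480).

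Sox9 was more even. In ENR-organoids it was 137 to 171 CPM in enteroendocrine cells, 111 to 133 in stem cells, 108 to 125 in goblet cells, 114 to 159 in Paneth cells and 99.2 to 102 in transit amplifying cells. Enterocyte progenitors (63.2 to 79.4) and enterocytes (27.0 to 47.6) came last, and the stem, goblet and Paneth ranges overlapped. The Paneth range also overlapped that of the enteroendocrine cells. In Hyper-organoids stem cells stood first, with 168 to 197 CPM, overlapping goblet cells at 160 to 196. Enteroendocrine cells there had 93.2 to 138 CPM, below the transit amplifying cells at 146 to 156.

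Sox11 had no class at 1 CPM or more in ENR-organoids other than enteroendocrine cells (0 to 6.16 CPM, 10 UMIs in all) and 1 goblet cell value of 1.99. In -VE-organoids the enteroendocrine cells again led, with 7.43 and 10.5 CPM against at most 1.20 in any other class. In Hyper-organoids it was present at 30.3 to 43.9 CPM in transit amplifying, 24.5 to 36.2 in stem, 26.9 to 34.3 in enteroendocrine and 24.1 to 32.1 in goblet cells, and these ranges overlapped. Enterocytes of the 2 Hyper libraries with enough cells had 0 UMIs. Sox12 was highest in enteroendocrine cells in every group, at 10.5 to 15.4 CPM in ENR and 21.1 to 30.6 in Hyper, and in Hyper-organoids stem (12.9 to 17.1), goblet (15.6 to 17.6) and transit amplifying cells (11.4 to 15.8) followed with overlapping ranges.

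Sox13 and Sox5 also had their highest median in enteroendocrine cells. Sox13 stood at 27.4 to 36.5 CPM there in ENR-organoids, against at most 8.12 in any other class. Sox5 had 12 UMIs in the ENR and 36 in the Hyper enteroendocrine cells, at 4.14 to 6.96 CPM in the latter, and 0 UMIs in enterocytes of both groups. Sox6 was led by goblet (13.6 to 19.2 CPM) and enteroendocrine cells (15.4 to 20.4) in ENR-organoids, whose ranges overlapped. Unlike Sox9, it was higher in enterocytes (8.97 to 12.1 CPM) than in their progenitors (4.97 to 5.28). Sox17 in Hyper-organoids was spread over stem (1.38 to 1.77 CPM), transit amplifying (0.827 to 1.98), enteroendocrine (0.528 to 2.32) and goblet cells (0.634 to 1.26), where only the stem and goblet ranges did not overlap, and had 4 UMIs each in 79 enterocytes and 26 revival stem cells.

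**Figure D3:**
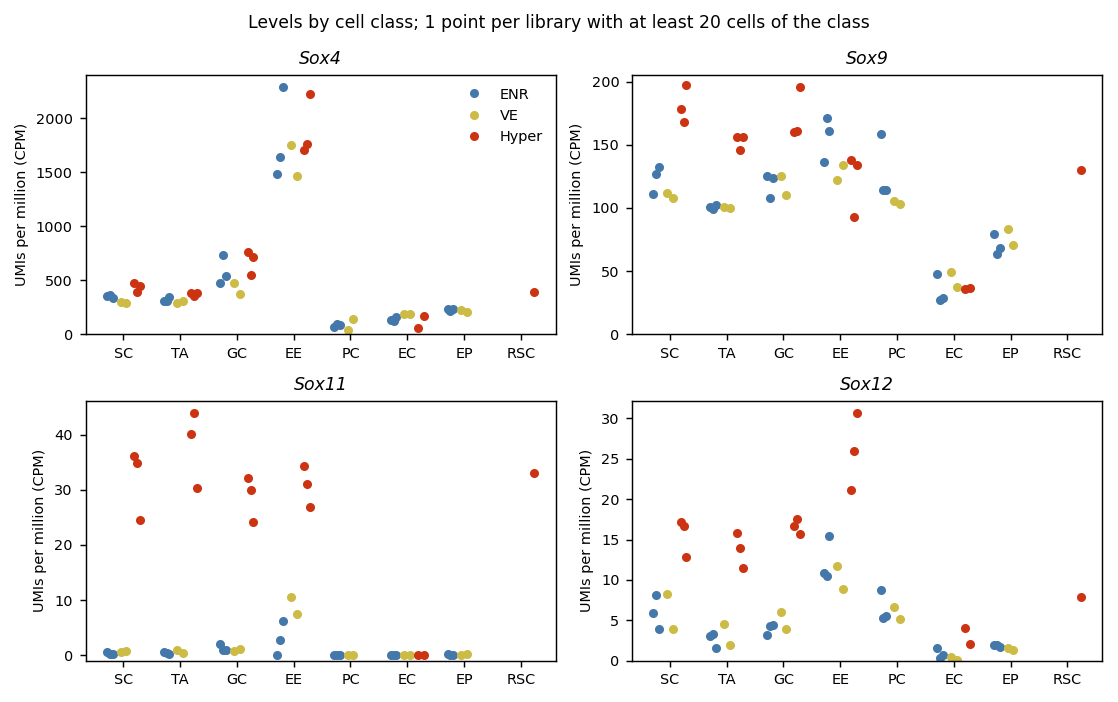
Level of Sox4, Sox9, Sox11 and Sox12 in CPM by cell class and medium, with 1 point per library that has at least 20 cells of the class. Sox4 peaks in enteroendocrine cells (EE) in all media, while Sox11 is near 0 outside Hyper-organoids except in enteroendocrine cells and is at 0 in the enterocytes (EC) of Hyper-organoids.

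There were 4 classes with at least 20 cells in all 8 organoid libraries, and these were tested one by one. In stem cells, with 8 members tested, Sox11 and Sox12 were called higher in Hyper- than in ENR-organoids, beside 15.2% of all genes, and Sox5 as well against -VE, beside 14.7%. In transit amplifying cells, again with 8 tested, Sox5, Sox11 and Sox12 were called in both comparisons, beside 17.2% and 15.5% of all genes. Sox17 was also called in both comparisons in these classes, but it passed the filter on low counts there only through the Hyper libraries and had to differ. In goblet cells Sox12 was called in both, with 6 members tested and beside 10.7% and 8.72% of all genes. Sox11 was called there too, but in this class it passed the filter only through the Hyper libraries. Both were called in enteroendocrine cells (2 of 7, beside 5.96% and 3.52%).

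Sox11 had an edgeR log2 fold change against ENR of 6.33 ± 0.29 (SE) in stem cells, 6.40 ± 0.29 in transit amplifying cells, 4.41 ± 0.27 in goblet cells and 3.54 ± 0.49 in enteroendocrine cells. These rest on 12, 57, 15 and 10 ENR UMIs and on 4500, 7964, 501 and 209 Hyper UMIs. The SE is derived from the test statistic and does not measure the counting error of so few UMIs. Sox12 had 1.24 ± 0.29, 2.24 ± 0.32, 1.97 ± 0.23 and 1.17 ± 0.26 in the same order. In enteroendocrine cells Sox11 against ENR stayed called under all 17 alternatives, with a log2 fold change of 2.9 without ENR replicate 1, 4.45 without ENR replicate 3 and 4.83 after thinning. The other calls in these cells were lost under some alternatives. Sox12 against ENR missed the threshold without ENR replicate 1 (adjusted p = 0.0595) or replicate 2 (edgeR adjusted p = 0.0578). Thinning gave 0.96 (edgeR adjusted p = 0.122). Against -VE, leaving out any of -VE replicates 1 and 2 or Hyper replicates 1, 2 and 3 ended the call of Sox11 (log2 fold change 1.76), with edgeR adjusted p from 0.0662 to 0.211. The Sox12 call against -VE (1.30) ended without -VE replicate 1 or 2 or Hyper replicate 2 or 3, with edgeR adjusted p from 0.0556 to 0.189. It also ended with DESeq2 (adjusted p = 0.0602) and after thinning (0.59, edgeR adjusted p = 0.521). Blocking by culture series gave Sox11 1.75 against -VE (edgeR adjusted p = 0.0564). In stem cells the calls against -VE of Sox12 (1.25) and Sox5 (1.70) ended without -VE replicate 2 (Sox12 was 1.86 without -VE replicate 1), at 0.78 (edgeR adjusted p = 0.0746) and 1.42 (adjusted p = 0.0565).

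Sox9 was higher in Hyper-organoids within stem, transit amplifying and goblet cells, with log2 fold changes of 0.44 ± 0.10 (SE, edgeR adjusted p = 0.00405), 0.49 ± 0.05 (adjusted p = 8.29e-05) and 0.43 ± 0.13 (adjusted p = 0.0213) against ENR. In enteroendocrine cells it was -0.28 ± 0.17 (edgeR adjusted p = 0.320) and the groups overlapped. Sox4 had 0.22 ± 0.07 (edgeR adjusted p = 0.0288) in stem cells. In transit amplifying, goblet and enteroendocrine cells the values were 0.10 ± 0.07, 0.12 ± 0.16 and 0.13 ± 0.20, none past the threshold (edgeR adjusted p = 0.262, 0.631 and 0.729). Against -VE Sox4 passed the adjusted p in stem (0.49 ± 0.08) and goblet cells (0.62 ± 0.18). Several of these sub-2-fold differences missed the threshold when a library was left out. The edgeR adjusted p reached 0.284 for Sox4 in goblet cells against -VE (without -VE replicate 2, also without Hyper replicate 1 or 3). It reached 0.0881 for Sox9 in goblet cells against ENR (without ENR replicate 2, also without Hyper replicate 3). It reached 0.0717 for Sox4 in stem cells against ENR (without Hyper replicate 3, also without ENR or Hyper replicate 1). Sox17 had 299 UMIs in Hyper and 0 in ENR transit amplifying cells, at least 66.9-fold higher when 3 counts over the ENR group are taken as the floor, and 215 against 1 UMI in stem cells. Between -VE- and ENR-organoids 0 members were called by edgeR in each of the 4 classes, with 4, 1, 2 and 2 members at an unadjusted p under 0.05 in stem, transit amplifying, goblet and enteroendocrine cells. DESeq2 also called 0. Of all genes 0.503%, 1.03%, 1.14% and 0.19% were called in these classes, and 2465 of 13920, 2798 of 14553, 2125 of 11714 and 1413 of 11050 had an unadjusted p under 0.05.

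**Figure D4:**
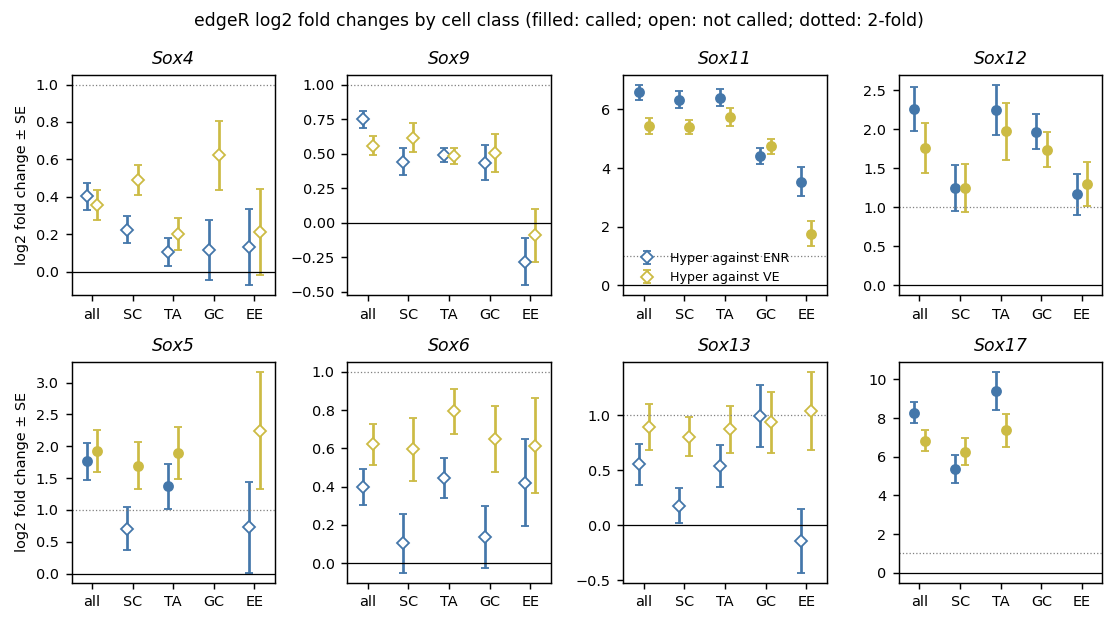
edgeR log2 fold changes with SE of 8 Sox genes over all kept cells and within stem (SC), transit amplifying (TA), goblet (GC) and enteroendocrine (EE) cells, for Hyper- against ENR- and against -VE-organoids. Filled points were called, open points were not, a missing point was not tested, and the dotted line marks 2-fold. Sox11 lies above 2-fold in every class, and Sox9 lies below 0 in enteroendocrine cells. The fitted Sox17 values depend on the prior count, since ENR and -VE are at or near 0. The SE is derived from the test statistic and can understate the error where a group has few UMIs.

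Whether the change from ENR to Hyper differed between classes was tested as an interaction against stem cells, with the library as a block. Sox9 changed less in enteroendocrine than in stem cells, by a log2 difference of -0.77 ± 0.16 (SE, edgeR adjusted p = 0.00131, with 17.6% of all genes past the threshold). Sox11 changed less in enteroendocrine cells (-2.79 ± 0.81, edgeR adjusted p = 0.0190) and in goblet cells (-2.06 ± 0.68, edgeR adjusted p = 0.0475, beside 13.3% of genes). Sox12 changed more in transit amplifying than in stem cells (0.99 ± 0.20, edgeR adjusted p = 0.00403, beside 5.67% of genes). The Sox9 difference passed under all alternatives tried. Sox11 in enteroendocrine cells missed the threshold without ENR replicate 2 (adjusted p = 0.139) or ENR replicate 3 (-1.76, edgeR adjusted p = 0.321) and was -3.95 without ENR replicate 1, Sox12 missed it without ENR replicate 2 (edgeR adjusted p = 0.0859), and Sox11 in goblet cells missed it when any 1 of the 6 libraries was left out and with RLE scaling (edgeR adjusted p = 0.0534). The classes were clustered on expression in these same cells, and the part of that choice in these differences was not tested.

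The rest of the family and its partners were followed as lists, to be read beside the shares above of all genes called higher and the 4.75% (against ENR) and 2.51% (against -VE) called lower. Genes with next to no UMIs outside Hyper-organoids, such as Sox14, Utf1, Lin28a and Stmn2, could pass the filter on low counts only through the Hyper libraries and then had to differ, so the counts of tested genes are a description. Of 10 other Sox genes 4 could be tested, and 3 were called higher against ENR (Sox3, Sox14 and Sox21), with log2 fold changes of 5.19 for Sox3 and 2.65 for Sox21, and 2 against -VE (Sox3 and Sox14). Sox14 had 1 UMI in ENR-organoids and stood at 3.30 to 7.53 CPM in the Hyper libraries, and Sox3 stood at 2.20 to 3.75 CPM there and at most 0.0895 CPM in ENR. Both belong with Sox2 and Sox21 to the SoxB genes, of which Sox2 had a few UMIs in every medium. The TCF/LEF genes, the HMG box partners of Wnt signalling, were called higher in 3 of 4 cases against ENR (Lef1 5.90, Tcf7l1 3.93 and Tcf7 1.52 on the log2 scale) and in 2 of 4 against -VE (Lef1 and Tcf7l1). Of cartilage genes known as targets of Sox9, Sox5 and Sox6, 7 of 11 could be tested and 5 were called higher and 1 lower against ENR. Those with the largest change were Col9a3 (2.88), Cnmd (-2.23) and Col9a1 (2.16), and the highest of the 3, Col9a1, reached 3.30 CPM. Against -VE 2 were called higher and 1 lower.

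Of 8 pluripotency genes 4 could be tested. Those called higher in both comparisons were Utf1 at 0.281 to 0.368 CPM and Lin28a at 0.0985 to 0.210 CPM in Hyper libraries, both at 0 in ENR and so tested only because of the Hyper libraries. Of 11 foregut and gastric genes 5 could be tested. Vsig1 (3.76) and Gkn3 (1.46) were called higher against ENR, and Pgc (-1.33) was called lower against -VE. Of 8 transcription factors of enteroendocrine cells only Neurog3 was called over all cells, 1.43 against ENR and 1.02 against -VE. Within classes more were called. Against ENR 6 of 6 tested were higher in transit amplifying cells, 2 of 6 in stem and 2 of 4 in goblet cells, and 2 of 8 were lower in enteroendocrine cells (1.44% of all genes there). Against -VE the counts were 2 of 6, 3 of 6 and 4 of 4 higher and 1 of 8 lower (0.489% of all genes). Over all cells, of 8 tuft cell markers Pou2f3 (1.21) was called higher and Sh2d6 (-4.57) and Avil (-1.51) lower against ENR, with Avil and Sh2d6 lower against -VE. Markers of other cell types were also summed. The 6 neuronal markers summed to 9.60 to 11.7 CPM in Hyper- and 2.42 to 3.16 in ENR-organoids, and 4 of 5 tested (Stmn2, Uchl1, Elavl4 and Snap25) were called higher. The 6 stromal markers summed to at most 0.838 CPM and the 6 leukocyte markers to at most 1.78 CPM in any organoid library. Of these, Col1a1, Pdgfra and Coro1a were called higher and Laptm5 lower in both comparisons. Col1a1, Pdgfra and Coro1a passed the filter only through the Hyper libraries and so had to differ. The 6 glial markers summed to 29.0 to 38.4 CPM in Hyper- and 43.2 to 45.6 in ENR-organoids, with 0 of 3 tested called. Erbb3 made up 27.4 to 43.4 CPM of these sums, and Cdh19 was at 0 in every organoid library. The part of these other cell types in the Sox values was not tested. Over all cells no gene of these lists was called by edgeR between -VE- and ENR-organoids.

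For each tested member the genes of most similar pattern were found over 50 sums of class and library, by Pearson's r of log2(CPM + 1) among 9765 genes. These points share libraries and classes, so r is a description. The nearest to Sox11 were Lpl (0.93), Enah (0.92) and Ccdc88a (0.92), and the nearest to Sox12 were Timp2 (0.92) and Cabp1 (0.92). Sox17 was followed by Nes (0.89), Ldhb (0.87) and Bex4 (0.85). Sox4 was followed by Map4k4 (0.95), Gm26735 (0.95) and Rbfox2 (0.95), of which Gm26735 overlaps Sox4 on the opposite strand. The strand setting of the counting was not given in the sources used here. Sox9 was followed by Tifa (0.87), Znrf3 (0.87), an inhibitor of Wnt signalling, and Tmed9 (0.87). Sox13 was followed by Galnt11 (0.87), Bace1 (0.87) and Fxyd6 (0.86), Sox6 by Tmem59 (0.89), Tmbim4 (0.88) and Saraf (0.88), and Sox5 by Evl (0.83), Adgrl1 (0.83) and Tcaf1 (0.82).

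In colonic crypts Sox11 and Sox17 were absent or nearly so. Sox11 had 0 UMIs in both libraries, which allows up to 0.151 CPM in normal and 0.0926 CPM in DSS crypts, and Sox17 had 0 and 1 UMI. Sox2 and Sox18 had 0 UMIs. Sox21, not among the 10 genes but called higher in Hyper- than in ENR-organoids, stood at 8.19 CPM in normal and 5.402 CPM in DSS crypts. With 1 library per condition no test was possible, and the intervals below are exact 95% Poisson intervals of counting error only. Of the 6 members with at least 10 UMIs over both libraries, 0 differed by 2-fold when 1 CPM was added to both levels, beside 3.55% of genes at least 2-fold higher and 1.53% at least 2-fold lower in DSS.

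Sox4 stood at 62.3 CPM (58.9 to 65.9) in normal and 111 CPM (107 to 114) in DSS crypts, 1.78 times as high. Sox9 stood at 68.3 (64.7 to 72.0) and 81.5 CPM (78.4 to 84.7), 1.19 times as high. Sox9 thus exceeded Sox4 in the normal library, where their intervals overlapped, and Sox4 exceeded Sox9 in the DSS library. Sox13 (10.3 and 8.92 CPM) and Sox6 (5.43 and 5.59 CPM) had overlapping intervals in the 2 libraries, as had Sox5 with 2 and 8 UMIs. Sox12 stood at 1.36 (0.894 to 1.97) and 0.494 CPM (0.282 to 0.802), on 27 and 16 UMIs. Its log2 ratio was -0.66 with 1 CPM added and -1.29 with 0.1 CPM added. Over all barcodes the Sox4 log2 ratio was 1.10 in place of 0.82. Cells with a UMI of the leukocyte gene Ptprc numbered 200 of 1132 in the normal and 369 of 1933 in the DSS library. Without them the Sox4 log2 ratio was 0.84. The summed leukocyte markers stood at 237 and 413 CPM and the stromal markers at 22.2 and 58.5 CPM in the normal and DSS libraries, and the part of these cells in the Sox values was not tested beyond leaving out cells with Ptprc.

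The libraries were split over 25 deposited clusters, of which 7 had at least 20 cells in both. In cluster 2, labelled stem in the deposited annotation, Sox4 stood at 280 CPM (259 to 301) in normal and 318 (299.7 to 338) in DSS crypts, and Sox9 at 167 (152 to 184) and 147 (134 to 160). Both pairs of intervals overlapped. Outside it Sox4 was higher in DSS with intervals apart in cluster 1 (36.7 and 54.5 CPM), cluster 5 (43.1 and 69.5) and cluster 13 (112 and 256, where Sox9 at 95.7 and 146 was apart as well), and lower in cluster 0 (46.5 and 9.13), where 86.8% and 89.9% of cells had a Ptprc UMI. These intervals cover counting error only and not the spread between cells or mice. How many of all genes had intervals apart in these clusters was not counted, so the cluster values are a description. Cluster 4 held 11 normal and 230 DSS cells and alone supplied 1239 of the 3588 Sox4 UMIs of the DSS library, at 248 CPM. The highest Sox4 level of the colon was in cluster 24, with 1473 and 1173 CPM in only 4 and 9 cells, where Sox9 was also highest, at 302 and 335 CPM.

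**Figure D5:**
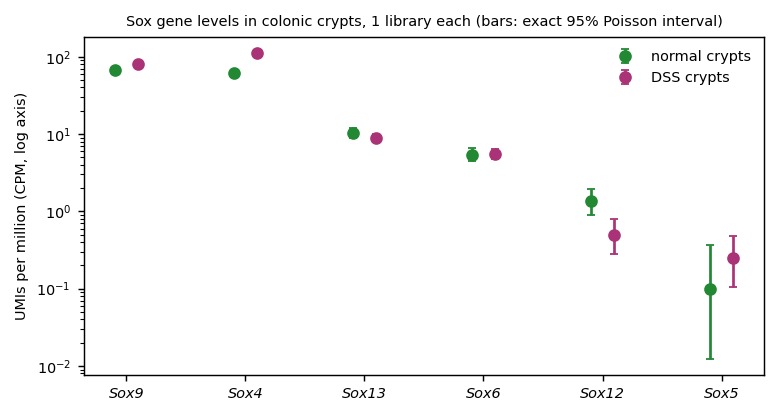
Level of 6 Sox genes in CPM on a log axis in 1 library of normal and 1 of DSS colonic crypts, with exact 95% Poisson intervals. Sox4 is at 62.3 in normal and 111 in DSS crypts, Sox12 is lower in DSS, and the intervals of Sox13, Sox6 and Sox5 overlap.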

How the data were processed

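The deposited values are raw counts of UMIs per gene and cell. The authors aligned 10x 3′ reads to mm10 with Cell Ranger (3.0.0 in the submitters' processing notes, 3.1.0 in the matrix header) and clustered cells with Seurat 3.1.4. Kept cells and classes were taken from the deposited annotation, in which kept cells had at least 501 to 611 genes per library and at most 20.0% mitochondrial UMIs, while the methods state 1500 genes and 25%. No doublet caller was run. The number of value columns without a sample was 0.

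Counts were summed per library, or per class and library, and tested with edgeR 4.0.16 (R 4.3.3) by quasi-likelihood with TMM scaling and filterByExpr over all genes, with Benjamini-Hochberg adjustment, all 8 organoid libraries in 1 fit. A call needed an adjusted p under 0.05 and a 2-fold difference. The SE of an edgeR value is its absolute log2 fold change divided by the square root of the F statistic, so it is approximate. It can understate the error where a group has few UMIs. DESeq2 1.42.0, other scaling and filters, thinning, left-out libraries and a block were alternatives. The libraries were treated as replicates, though the sources do not say whether replicates 1 and 2 are separate cultures. Intervals cover counting error at 95%. The text names all members, and listed genes that were called or are highest. For similar patterns it names the 3 genes of highest correlation among those reaching 5 CPM. Some items are not reported here. The members and lists were chosen with earlier results of these data known. Promoter sequences are from RefSeq (GRCm38.p6), which gave entries for 7 of 10 members (not Sox9, Sox17 or Sox18). The scripts were tested on simulated data.

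The replicate numbers mark culture series as read from the library names. Deviations from group means of same-series ENR and Hyper libraries correlated across 16037 genes at r = 0.192, 0.170 and 0.436. ENR and Hyper libraries of different series gave r from -0.292 to 0.129. Same-series pairs with a -VE library gave r from 0.0618 to 0.161. Deviations from a group mean cancel out within the group, so values of different series partly follow from those of the same series. The main fits used the group only and did not pair the libraries, and the fit with the series as a block was an alternative.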

Additional observations from a re-analysis of the deposited data

Results flagged for a closer look

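The change from ENR- to Hyper-organoids differed between cell classes for 3 genes when the difference itself was tested (edgeR interaction against stem cells, library as a block). For Sox9 the log2 difference was -0.77 (edgeR adjusted p = 0.00131) in enteroendocrine cells. For Sox11 it was -2.79 (edgeR adjusted p = 0.0190) in enteroendocrine and -2.06 (adjusted p = 0.0475) in goblet cells, on 10 and 15 ENR UMIs. For Sox12 it was 0.99 (edgeR adjusted p = 0.00403) in transit amplifying cells. The Sox9 difference passed under all 8 alternatives. The Sox11 difference in goblet cells passed under 1 of 8, with edgeR adjusted p up to 0.157, and missed the threshold with RLE scaling (adjusted p = 0.0534) and without any 1 of the 6 libraries. Sox11 in enteroendocrine cells missed it without ENR replicate 2 or 3 (edgeR adjusted p up to 0.321), with differences from -3.95 to -1.76 when 1 library was left out, and Sox12 without ENR replicate 2 (edgeR adjusted p = 0.0859).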

How the results depend on the processing

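Counts of called members (main 4 in both Hyper comparisons over all cells) were 2 when a gene had to reach 10 CPM in 2 libraries, which leaves fewer members tested, and this held over all cells and in transit amplifying cells for both comparisons and in stem cells against -VE. Between -VE and ENR over all cells the count was 1 in place of 0 with RLE scaling, DESeq2, no filter, the 10 CPM filter, the culture series as a replicate block, all barcodes, and without the 5% of cells with most UMIs, and 0 to 1 when a library was left out. The gene was Sox11 (1.03, edgeR adjusted p = 0.0281 under the block). The block also took the enteroendocrine count against -VE from 2 to 1, as did DESeq2 and thinning, and changed no other count of calls by over 1.5 times. Leaving out libraries gave 0 to 2 there, 1 to 2 against ENR (1 thinned), 0 to 1 between -VE and ENR (2 with no filter), 2 to 5 in stem cells against -VE, and 1 to 4 for the interaction. Goblet cells against ENR gave 4 with no filter. In the colon 1 member passed 2-fold with 0.1 CPM added and 1 over all barcodes, in place of 0. The cause was not tested.

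Signs turned for some values that were not called. Thinning gave -0.000525 for Sox4 between -VE and ENR, and -0.15 for Sox6 in stem cells against ENR. Leaving out libraries gave ranges of -0.73 to 0.24 for Sox5 and -0.13 to 0.93 for Sox12 between -VE and ENR, of -0.0119 to 0.28 for Sox4 in goblet and -0.0207 to 0.40 in enteroendocrine cells against ENR, and of -0.21 to 0.0869 for Sox9 in enteroendocrine cells against -VE. Of 1449 values for single genes under alternatives 1378 kept their direction and stayed called or not called. A call needs both the adjusted p and the 2-fold difference. A value under 2-fold that lost its adjusted p, as Sox13 did against ENR (edgeR adjusted p up to 0.201), was therefore counted as kept. This count leaves out values within classes between -VE and ENR and differences between classes that did not pass the threshold. Any alternative that gave no adjusted p was counted as kept. Sox2 and Sox18 had too few UMIs to be tested, and classes with few cells rest on few UMIs.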

Other observations

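The class labelled RSC, revival stem cells, held 70 cells, 26 of them in the 1 Hyper library with enough to give a level. There Sox21 stood at 25.8 CPM, Sox11 at 33.1, Sox12 at 7.94 and Sox9 at 130 CPM, with no replicate. The class labelled TC, an abbreviation that the labels do not explain, held 17 cells and was not analysed here.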
